A study of Mus musculus with 90 samples.

Results

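The pyruvate dehydrogenase complex joins glycolysis to the mitochondrion, and its kinases and phosphatases switch it off and on. The genes described here are 4 subunit genes (Pdha1, Pdhb, Dlat and Pdhx), the 4 kinase genes (Pdk1, Pdk2, Pdk3 and Pdk4) and the catalytic subunits of its 2 phosphatases (Pdp1 and Pdp2). They were picked by name, with earlier results of these data known, so counts and medians of the members beside all genes are descriptions. All 10 had a row in each of the 90 count files, out of 32697 gene rows, and all 10 passed the filter on low counts in every tissue.

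The complex turns pyruvate into acetyl-CoA and so commits glucose carbon to oxidation or to fat synthesis. Pdha1 and Pdhb encode the alpha and beta chains of the E1 enzyme, Dlat the E2 acetyltransferase core and Pdhx the protein that anchors the E3 enzyme to that core. Phosphorylation of the E1 alpha chain by a PDK stops the complex, and a PDP phosphatase removes the phosphate. Pdk4 is known as the kinase of fasted and fat-burning tissue, Pdk2 as the widely expressed one and Pdk1 as a target of the hypoxia factor HIF-1, while brown fat is known for burning both glucose and fatty acids to make heat.

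RNA of 4 tissues was sequenced in homozygous male mice: brown adipose tissue (BAT), inguinal white adipose tissue (iWAT), gastrocnemius muscle and hypothalamus. The genotypes were dKO, lacking both UCP1 and FGF21; UCP1 KO, lacking uncoupling protein 1, which lets brown fat mitochondria release energy as heat; FGF21 KO, lacking the hormone fibroblast growth factor 21; and WT. Every mouse, WT included, was bred and weaned at 30 °C, entered the cold chamber aged 10 to 12 weeks, and spent 12 days at 18 °C before 3 weeks at 5 °C, with food withdrawn for 2 to 3 h at the end, so no group stands for warm housing. The design text writes FGF12 once where FGF21 must be meant for the dKO. BAT gave 6 dKO, 6 UCP1 KO, 5 FGF21 KO and 5 WT libraries. iWAT and gastrocnemius each gave 6 dKO, 6 UCP1 KO, 5 FGF21 KO and 6 WT libraries, and hypothalamus 5 dKO, 6 UCP1 KO, 5 FGF21 KO and 6 WT libraries.

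A library held 18.1 to 69.9 M counts (M for 1000000), with a median of 46 M. In BAT, Ucp1 lay at 1354 ± 143 counts per 1000000 (CPM) in dKO and 1139 ± 192 CPM in UCP1 KO (SD, n = 6 each), against 11201 ± 397 CPM in FGF21 KO and 8524 ± 1354 CPM in WT (n = 5 each). Mean Ucp1 counts in iWAT were ordered the opposite way, with 1330 ± 326 CPM in dKO and 1421 ± 278 CPM in UCP1 KO, against 588 ± 348 CPM in FGF21 KO and 516 ± 406 CPM in WT. The highest WT iWAT library, at 1174 CPM, lay above the lowest of dKO (937 CPM) and of UCP1 KO (1034 CPM). FGF21 KO replicate 5 held 6.77 CPM, against 549 to 897 CPM in the rest of its group. Which part of Ucp1 was deleted is not given in the sources used here, so counts over the whole gene do not check the iWAT labels. Fgf21 held 0 to 1 counts per library in dKO BAT, 605 to 2137 in UCP1 KO BAT, 0 to 13 in FGF21 KO BAT and 8 to 67 in WT BAT. The 10 skeletal muscle markers summed to 159183 to 206156 CPM in gastrocnemius and the 8 neuronal and hypothalamic markers to 2732 to 3166 CPM in hypothalamus, with none at 0. In 8 BAT libraries, spread over the 4 genotypes, the muscle markers stood above a mean log2 CPM of 7, and in 12 iWAT libraries the lymphocyte markers stood above 2. Replicates are numbered in accession order, and no label ties libraries to a mouse, so p-values measure the spread between these libraries. In whole tissue, fewer cells of a type and less RNA per cell cannot be told apart.

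On GRCm38 the members lie at chrX:160122209-160138413 (Pdha1), chr14:8165996-8173025 (Pdhb), chr9:50634633-50659780 (Dlat), chr2:103021075-103073513 (Pdhx), chr2:71873224-71903858 (Pdk1), chr11:95026258-95041354 (Pdk2), chrX:93764607-93832201 (Pdk3), chr6:5483351-5496309 (Pdk4), chr4:11958184-11966452 (Pdp1) and chr8:104591451-104599026 (Pdp2). The values are counts over each gene's exons. Pdha1 overlaps Map3k15 and Pdk2 overlaps Gm11513, and since the strand setting of the counting is not given in the sources used here, reads of such partners cannot be told apart. Pdp2 lies 21.3 Mb from Ucp1 on the same chromosome.

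The start regions of the 3 genes on which the adipose results turn are given here from RefSeq (GRCm38.p6, 250 bases before the start and 50 after it, 5′ to 3′ on the gene's strand). Capitals mark each match, on either strand, to the GC box GGGCGG, the CCAAT box CCAAT, or the HIF core ACGTG or GCGTG. Pdk4 lies at chr6:5496229-5496528 on the minus strand, Pdk1 at chr2:71872974-71873273 on the plus strand (the first of its 2 RefSeq starts) and Pdha1 at chrX:160138381-160138680 on the minus strand.
Pdk4: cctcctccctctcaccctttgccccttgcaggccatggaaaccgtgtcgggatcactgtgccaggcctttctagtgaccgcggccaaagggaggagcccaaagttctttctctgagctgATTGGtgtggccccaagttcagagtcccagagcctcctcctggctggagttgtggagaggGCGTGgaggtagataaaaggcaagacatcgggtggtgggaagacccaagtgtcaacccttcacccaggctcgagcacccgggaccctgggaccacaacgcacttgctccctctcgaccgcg
Pdk1: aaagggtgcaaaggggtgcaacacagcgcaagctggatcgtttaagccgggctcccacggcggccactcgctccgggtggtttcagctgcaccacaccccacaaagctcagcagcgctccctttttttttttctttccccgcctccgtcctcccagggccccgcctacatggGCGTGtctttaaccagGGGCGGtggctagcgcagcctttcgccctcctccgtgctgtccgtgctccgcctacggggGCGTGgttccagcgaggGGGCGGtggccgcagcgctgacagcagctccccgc
Pdha1: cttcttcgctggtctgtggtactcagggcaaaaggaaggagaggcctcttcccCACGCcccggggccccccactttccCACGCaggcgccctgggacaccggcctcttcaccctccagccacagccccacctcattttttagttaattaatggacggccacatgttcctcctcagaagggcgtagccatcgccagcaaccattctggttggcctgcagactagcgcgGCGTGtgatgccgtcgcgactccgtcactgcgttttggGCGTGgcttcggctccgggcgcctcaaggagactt

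Counted from the start, the Pdk4 window held ATTGG at -131 and GCGTG at -71. The Pdk1 window held GGGCGG at -62 and 16 and GCGTG at -78 and -2, each GCGTG lying upstream of a GGGCGG. The Pdha1 window held CACGC at -197 and -172 and GCGTG at -23 and 16. The table held 11 windows for 9 members, without Pdp1. GCGTG was in 6 of the 11, against 32.4% of 32851 mouse promoters of this length; GGGCGG in 6, against 35.7%; CCAAT in 6, against 37.4%; and ACGTG in 4, against 19.6%. The FoxO letters GTAAACA (3.65% of promoters), the PPAR repeat of AGGTCA with a single base between (0.0396%) and the ERR letters TCAAGGTCA (0.423%) were in 0 of the 11 windows; each motif was searched on both strands. The E-box CACGTG, which contains an ACGTG match, was in 2, against 7.15%. The Pdk4, Pdk1 and Pdha1 windows printed above had a GC content of 60.7%, 66% and 62%, against a median of 52.7% over all promoters. The 11 windows ran from 40.3% (the other Pdk1 start) to 68% (Pdk3). Whether the members hold more matches than promoters of like GC content was not tested. A match is a description of the letters and not a measured binding site.

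In WT mice the subunit genes followed one order of tissues. Pdha1 averaged 3170 ± 305 CPM in BAT (SD, n = 5), 951 ± 264 in iWAT, 845 ± 27.0 in gastrocnemius and 232 ± 8.10 in hypothalamus (n = 6 each). Pdhb, Dlat, Pdhx and Pdk1 also ran BAT, iWAT, gastrocnemius, hypothalamus from highest to lowest. The iWAT and gastrocnemius ranges of Pdha1 and Pdhx overlapped, and the order of that pair turned round when all 90 libraries were scaled together. The regulators were spread differently. Pdk4 averaged 3490 ± 385 CPM in BAT, 556 ± 92.5 in gastrocnemius, 467 ± 195 in iWAT and 12.0 ± 0.796 in hypothalamus, with the gastrocnemius and iWAT ranges overlapping. Pdk2 averaged 538 ± 27.8 CPM in gastrocnemius and 507 ± 12.3 in BAT, again with overlapping ranges, then 124 ± 34.6 in iWAT and 96.5 ± 3.92 in hypothalamus, whose ranges overlapped too. Pdk3 was a hypothalamic gene by level, at 18.6 ± 1.84 CPM there, 6.60 ± 1.37 in iWAT, 2.28 ± 0.577 in BAT and 0.863 ± 0.188 in gastrocnemius. The phosphatases were opposite to each other: Pdp1 averaged 196 ± 25.4 CPM in hypothalamus, 92.1 ± 5.54 in gastrocnemius, 12.3 ± 1.0 in iWAT and 10.5 ± 5.37 in BAT, while Pdp2 averaged 61.1 ± 7.74 in BAT, 18.5 ± 4.30 in iWAT, 9.76 ± 0.597 in hypothalamus and 4.57 ± 0.446 in gastrocnemius. Scaling all 90 libraries together kept the order of the 4 tissues for 6 of the 10 members; it turned round hypothalamus and gastrocnemius for Pdp1 and Pdp2, and iWAT and BAT, whose ranges overlapped, for Pdp1.

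In BAT of mice without UCP1, all 4 subunit genes and 2 of the kinase genes, Pdk1 and Pdk2, fell. Pdk1 fell the most, to a level 4.37-fold lower in UCP1 KO and 4.24-fold lower in dKO than in WT, while Pdk4 was not called lower in either. Of the 10 members, 6 were lower and 1 was higher in UCP1 KO than in WT, and 6 were lower and 2 higher in dKO than in WT (edgeR quasi-likelihood test, Benjamini-Hochberg adjusted p under 0.05). The background is broad: 60.1% of the 16032 genes tested were called in UCP1 KO against WT (29.9% lower and 30.2% higher), and 59.1% in dKO against WT (29.3% lower and 29.7% higher). The median log2 fold change of the members in UCP1 KO was -0.48, against -0.02 over all genes.

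Pdha1, the E1 alpha chain that the kinases phosphorylate, moved the most among the subunits. Its lowest, median and highest values in BAT were 1231, 1350 and 1505 CPM in dKO and 1104, 1244 and 1377 CPM in UCP1 KO. It stood at 3100, 3182, 3507, 3089 and 3354 CPM in the 5 FGF21 KO libraries and at 3638, 2957, 2989, 3323 and 2941 CPM in the 5 WT libraries. Each library without UCP1 lay below each library with it. Pdha1 had a log2 fold change of -1.34 in UCP1 KO against WT (SE 0.07, adjusted p = 1.47e-12), a level 2.53-fold lower, and -1.22 in dKO against WT.

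Pdhb, the E1 beta chain, ran from 779 to 923 CPM in dKO and from 675 to 923 in UCP1 KO, against 1330 to 1482 in FGF21 KO and 1210 to 1684 in WT. Its log2 fold change was -0.82 (SE 0.09, adjusted p = 4.05e-08) in UCP1 KO and -0.76 in dKO against WT. Dlat fell by 0.63 on the log2 scale (SE 0.07, adjusted p = 8.9e-08) in UCP1 KO and by 0.51 in dKO, with ranges that did not overlap WT in either group. Pdhx changed least: it ran from 190 to 213 CPM in dKO and 163 to 227 in UCP1 KO, against 233 to 254 in FGF21 KO and 224 to 295 in WT. The UCP1 KO and WT ranges of Pdhx overlapped, and the log2 fold change was -0.33 (SE 0.07, adjusted p = 0.000562); for dKO it was -0.29 (adjusted p = 0.00196) with no overlap. The balance of the subunits is given as a description, without a test. Per kilobase of exon, Pdha1 stood at 7.02 times Pdhx in dKO and 6.64 times in UCP1 KO, against 14.0 times in FGF21 KO and 13.4 times in WT.

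**Figure D1:**
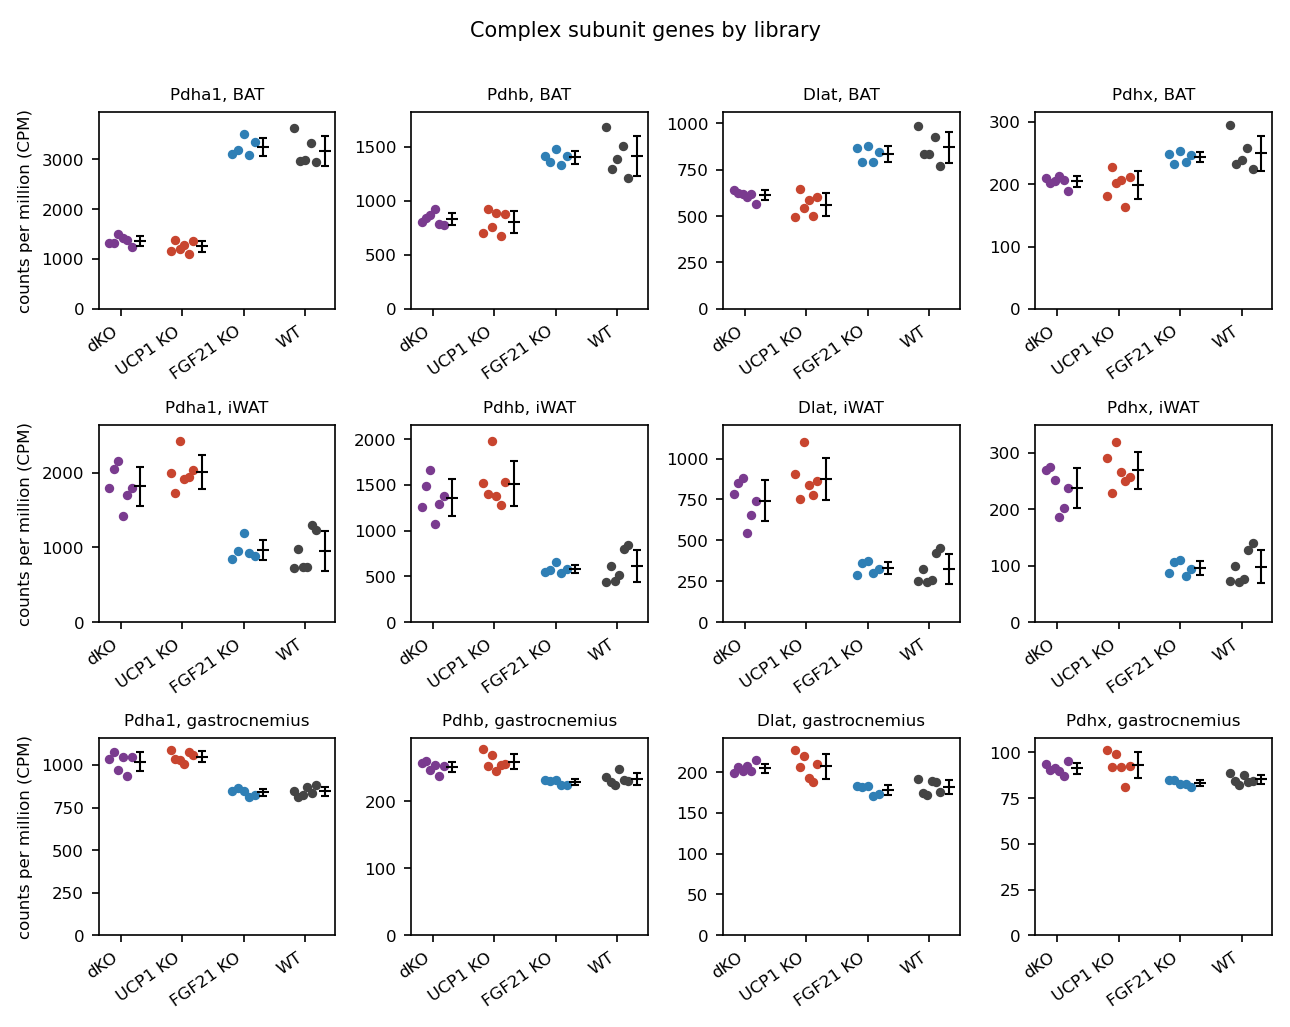
Levels of the 4 subunit genes in CPM (vertical axes, from 0) in BAT, iWAT and gastrocnemius; each point is a library, and the bar beside each group is its mean with SD (n = 5 or 6). In BAT the dKO and UCP1 KO libraries of Pdha1 sit at 1104 to 1505 CPM, below FGF21 KO and WT, and in iWAT they sit above them.

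Among the kinases, Pdk1 showed the greatest fall. In BAT its lowest, median and highest values were 49.3, 53.4 and 76.1 CPM in dKO and 40.3, 57.5 and 68.5 CPM in UCP1 KO. FGF21 KO libraries held 260, 251, 258, 251 and 258 CPM and WT libraries 297, 227, 225, 250 and 227 CPM. The groups without UCP1 did not overlap the others. The log2 fold change was -2.13 in UCP1 KO (SE 0.13, adjusted p = 1.34e-11) and -2.09 in dKO (SE 0.13, adjusted p = 1.84e-11).

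Pdk2 ran from 296 to 341 CPM in dKO and 288 to 340 in UCP1 KO, against 481 to 511 in FGF21 KO and 493 to 521 in WT, again without overlap. Its log2 fold change was -0.70 (SE 0.05, adjusted p = 5.84e-11) in UCP1 KO and -0.66 in dKO. Pdk3, a kinase at a few CPM in BAT, went the other way. It ran from 2.83 to 4.43 CPM in dKO and 3.46 to 4.28 in UCP1 KO, against 1.69 to 3.15 in WT, with log2 fold changes of 0.64 in dKO (SE 0.15, adjusted p = 0.000874) and 0.78 in UCP1 KO (SE 0.15, adjusted p = 0.000106). The UCP1 KO libraries did not overlap WT, and the dKO libraries did.

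Pdk4 differed between the groups without UCP1 in whether it passed the test against WT. Its lowest, median and highest BAT values were 4534, 4648 and 5528 CPM in dKO and 3029, 4007 and 4709 CPM in UCP1 KO. FGF21 KO libraries held 2410, 4366, 4891, 5156 and 4770 CPM and WT libraries 3438, 2879, 3499, 3820 and 3817 CPM. Each dKO library lay above each WT library, while UCP1 KO and WT overlapped. The log2 fold change was 0.45 in dKO (SE 0.15, adjusted p = 0.011) and 0.17 in UCP1 KO (SE 0.15, adjusted p = 0.336, approximate 95% interval -0.12 to 0.45). The direct difference of dKO from UCP1 KO was 0.28 (approximate interval 0.01 to 0.56) and did not pass (adjusted p = 0.308). The edgeR p was not under 0.05 before adjustment either, although this approximate interval leaves out 0.

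**Figure D2:**
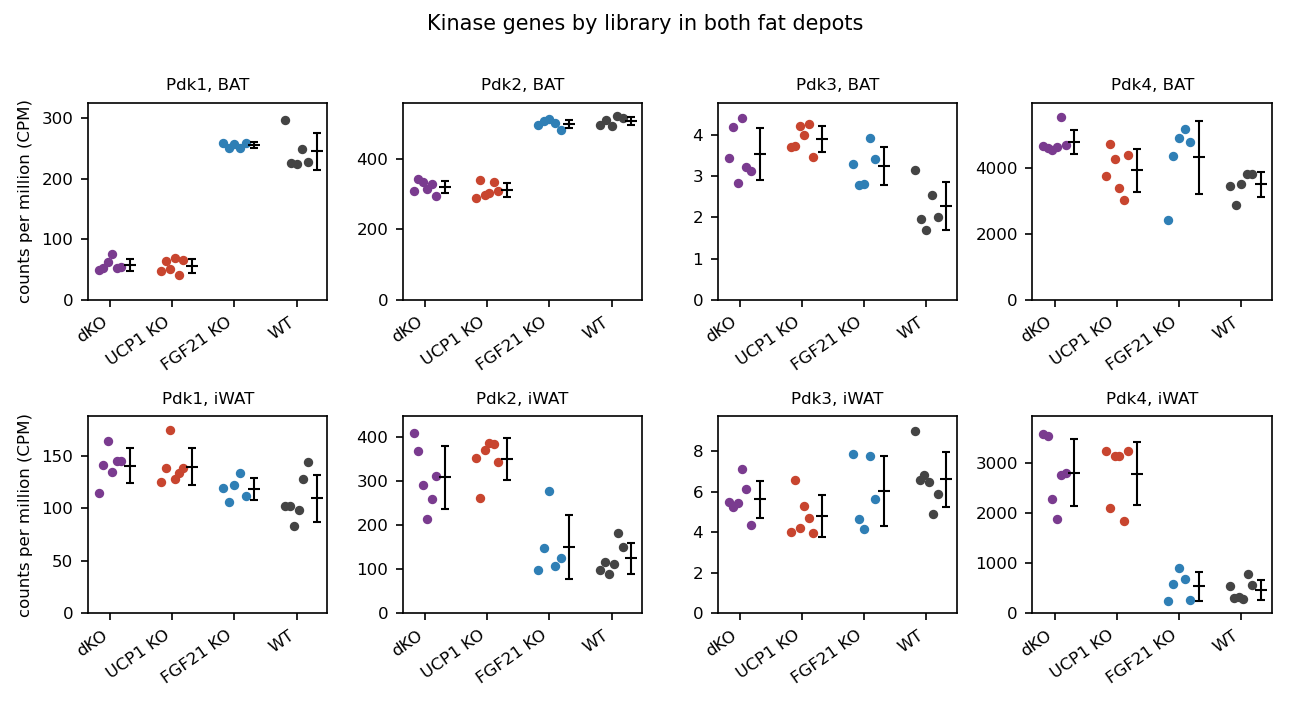
Levels of the kinase genes Pdk1, Pdk2, Pdk3 and Pdk4 in CPM (vertical axes, from 0) in BAT and iWAT; each point is a library and each bar a mean with SD (n = 5 or 6). Pdk1 in BAT lies at 40.3 to 76.1 CPM without UCP1 and at 225 CPM or more with it, and Pdk4 in iWAT lies at 1846 to 3584 CPM without UCP1 and at 896 CPM or less with it.

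The phosphatase genes gave no call in BAT. Pdp2, the isoform of fat tissue by level, ran from 56.7 to 82.4 CPM in dKO and 45.3 to 67.1 in UCP1 KO, against 55.5 to 70.2 in WT, with log2 fold changes of 0.15 and -0.12 (adjusted p = 0.343 in UCP1 KO). Pdp1 ran from 9.0 to 12.5 CPM in dKO and 9.97 to 14.9 in UCP1 KO, against 8.71, 8.51, 6.59, 8.69 and 19.96 CPM in the 5 WT libraries. WT replicate 5, the highest, was also the BAT library with the most muscle marker RNA; the part of that RNA in its Pdp1 value was not tested. The log2 fold change of Pdp1 was 0.18 (SE 0.20, adjusted p = 0.475) in UCP1 KO; without WT replicate 5 it was 0.55 (adjusted p = 0.00109) in UCP1 KO and 0.46 (adjusted p = 0.00477) in dKO, and without all 8 libraries high in muscle markers it was 0.45 and 0.47.

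The calls against WT on the other BAT members held without those 8 libraries, where Pdk1 had log2 fold changes of -2.22 in UCP1 KO and -2.16 in dKO, Pdk3 0.68 and 0.64, and Pdk4 in dKO 0.44 (adjusted p = 0.011). Macrophage markers moved with the genotype: the 6 of them, none at 0, summed to 218 to 328 CPM in dKO and 351 to 494 CPM in UCP1 KO, against 78.0 to 127 CPM in FGF21 KO and 74.6 to 104 CPM in WT. Their part in the BAT results was not tested.

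In iWAT the same genotypes moved most of these genes upwards. In UCP1 KO and in dKO alike, 8 of the 10 members were called higher and 1 lower than in WT. Of the 16751 genes tested, 46.3% were called in UCP1 KO (22.3% higher and 24% lower) and 37% in dKO (19% higher and 18% lower). The median log2 fold change of the members was 1.37 in UCP1 KO, against -0.13 over all genes. Pdk4 rose 5.97-fold in UCP1 KO and 6.02-fold in dKO, the subunits and Pdk2 by 1.91-fold to 2.81-fold, and Pdp2 by 2.78-fold and 2.96-fold.

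Pdk4 in iWAT had lowest, median and highest values of 1876, 2777 and 3584 CPM in dKO and 1846, 3140 and 3238 CPM in UCP1 KO. FGF21 KO libraries held 242, 581, 896, 690 and 266 CPM, and WT values were 288, 436 and 776 CPM. The lowest library without UCP1 lay above the highest library with it. On the log2 scale the fold change was 2.58 in UCP1 KO (SE 0.32, adjusted p = 2.16e-06) and 2.59 in dKO (SE 0.32, adjusted p = 3.1e-06). The WT BAT libraries, for scale, held 2879 to 3820 CPM.

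Pdk2 also rose in iWAT. It ran from 213 to 409 CPM in dKO and 260 to 386 in UCP1 KO, against 97.8 to 276 in FGF21 KO and 89.6 to 181 in WT, with log2 fold changes of 1.31 in dKO and 1.49 (SE 0.23, adjusted p = 2.37e-05) in UCP1 KO. Both groups lay above WT and overlapped FGF21 KO. Pdk1 moved little: 114 to 164 CPM in dKO and 125 to 174 in UCP1 KO overlapped the 82.6 to 144 CPM of WT. Its log2 fold change was 0.36 (adjusted p = 0.0192) in dKO and 0.35 (SE 0.12, adjusted p = 0.0183) in UCP1 KO. Pdk3 was lower in UCP1 KO (3.96 to 6.59 CPM) than in WT (4.87 to 8.99 CPM), by -0.46 on the log2 scale (SE 0.18, adjusted p = 0.0375), and the dKO gave -0.23 without a call. DESeq2 did not call Pdk3 in UCP1 KO (adjusted p = 0.0501), and 11 of 21 alternatives in all did not.

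The subunit genes rose together in iWAT. Pdha1 had lowest, median and highest values of 1422, 1796 and 2161 CPM in dKO and 1725, 1973 and 2429 CPM in UCP1 KO, against 720, 859 and 1300 CPM in WT; the 5 FGF21 KO libraries held 844, 951, 1192, 932 and 888 CPM. Neither group without UCP1 overlapped WT. The log2 fold change of Pdha1 was 0.94 in dKO and 1.08 (SE 0.16, adjusted p = 1.13e-05) in UCP1 KO. Pdhb gave 1.16 in dKO and 1.31 (SE 0.16, adjusted p = 1.55e-06) in UCP1 KO, Dlat 1.19 and 1.42 (SE 0.16, adjusted p = 6.11e-07), and Pdhx 1.28 and 1.46 (SE 0.16, adjusted p = 4.19e-07). The ranges of Pdhb, Dlat and Pdhx likewise did not overlap WT. Per kilobase of exon Pdha1 stood at 8.11 times Pdhx in dKO and 7.88 times in UCP1 KO, against 10.6 times in FGF21 KO and 10.3 times in WT.

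The phosphatases parted in iWAT. Pdp2 ran over 43.0, 51.8 and 70.6 CPM in dKO and 44.1, 51.4 and 59.0 CPM in UCP1 KO (lowest, median and highest), against 23.3, 22.8, 23.0, 21.5 and 18.5 CPM in the FGF21 KO libraries and 13.5, 19.3 and 22.7 CPM in WT. The lowest value without UCP1 was above the highest with it. The log2 fold change was 1.57 in dKO (adjusted p = 1.4e-07) and 1.47 in UCP1 KO (SE 0.14, adjusted p = 1.25e-07). Pdp1 was at lower levels, with 8.54 to 10.3 CPM in dKO and 9.24 to 11.3 in UCP1 KO against 10.7 to 13.5 in WT, and the dKO range did not overlap WT. In dKO it passed at -0.38 on the log2 scale (SE 0.15, adjusted p = 0.0489), not under DESeq2 (adjusted p = 0.0666) nor without any single one of the 12 libraries compared, and did not pass in UCP1 KO (-0.28, SE 0.15, adjusted p = 0.13). Per kilobase of exon Pdp2 stood at 4.58 times Pdp1 in dKO and 4.01 times in UCP1 KO, against 1.46 times in FGF21 KO and 1.20 times in WT.

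Marker RNA moved with these iWAT results. The 6 brown adipocyte markers, which include Ucp1 itself and none of which was at 0, summed to 2792 to 5890 CPM in dKO and 3244 to 5842 CPM in UCP1 KO, against 281 to 1608 CPM in FGF21 KO and 399 to 2004 CPM in WT; their part was not tested. The 10 lymphocyte markers, none at 0, summed to 6.53 to 679 CPM in dKO, 10.7 to 623 CPM in UCP1 KO, 7.05 to 1550 CPM in FGF21 KO and 7.01 to 1269 CPM in WT, and 4 of the 6 WT libraries were among the 12 high ones. Without those 12 libraries, Pdk4 had log2 fold changes of 2.40 in dKO (adjusted p = 0.00264) and 2.33 in UCP1 KO (adjusted p = 0.0026), Pdha1 0.67 and 0.84, and Pdp2 1.61 and 1.27, each still called. Pdk1 was not called without them, at 0.07 in dKO (adjusted p = 0.761) and 0.18 in UCP1 KO (adjusted p = 0.401), nor was Pdk3 in UCP1 KO (-0.33, adjusted p = 0.13). Pdk1 in UCP1 KO also lost its call without replicate 3 of that group (0.27, adjusted p = 0.0672), and in dKO without replicate 3 of the dKO (0.31, adjusted p = 0.0523).

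**Figure D3:**
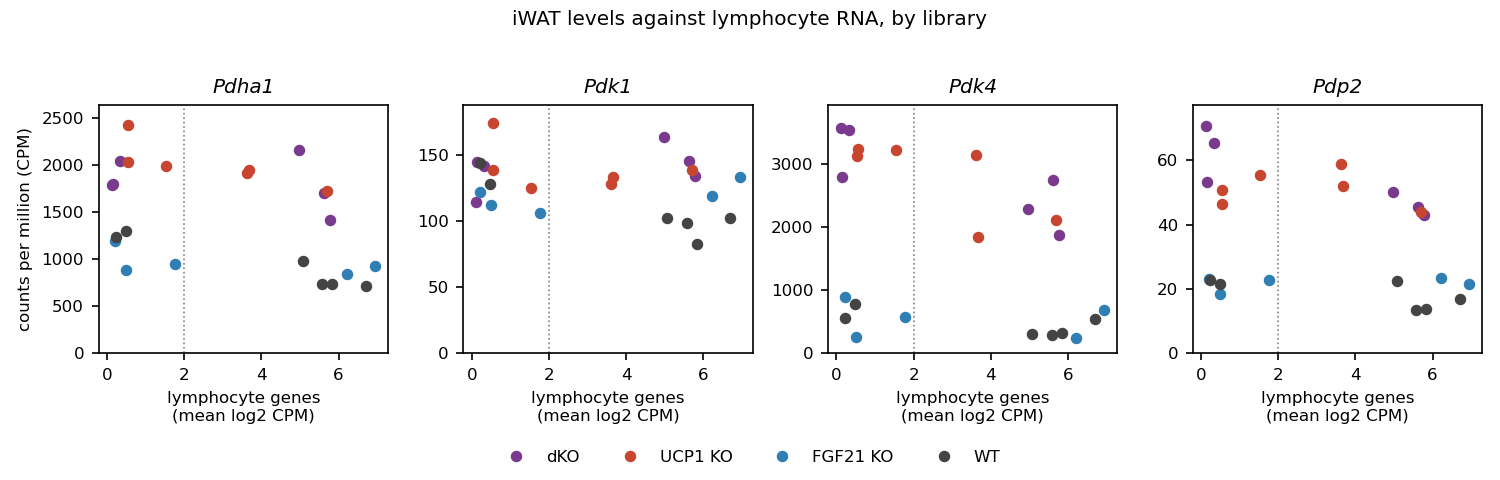
Levels of Pdha1, Pdk1, Pdk4 and Pdp2 in iWAT (vertical axes, CPM, from 0) against the mean log2 CPM of 10 lymphocyte markers (horizontal axes); each point is a library, and the dotted line marks the value of 2 above which libraries were left out. Pdk4 and Pdp2 separate dKO and UCP1 KO from FGF21 KO and WT on both sides of the line. The Pdk1 groups run into each other left of the line, and FGF21 KO runs into UCP1 KO right of it.

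The difference between the depots was tested directly, as the UCP1 KO effect in iWAT minus that in BAT over 45 libraries. Of 17186 genes, 52.6% were called (27.7% with a positive difference and 25% with a negative one), and of the members 8 were positive and 1 negative. Pdk1 had the widest gap, 2.54 (SE 0.18, adjusted p = 5.46e-14), made of a small effect in iWAT and a fall in BAT. Pdk4, with 2.47 (SE 0.36, adjusted p = 3.86e-07), was made the other way, of a rise in iWAT and no call in BAT. Pdha1 gave 2.48 (SE 0.18, adjusted p = 6.95e-14), Pdhb 2.20, Dlat 2.12, Pdhx 1.85 and Pdk2 2.25, each with opposite signs in the depots. Pdp2 gave 1.66 and Pdk3 -1.19 (SE 0.23, adjusted p = 4.81e-05). Pdp1 did not pass (-0.39, SE 0.25, adjusted p = 0.195); without BAT WT replicate 5 its difference was -0.82 (adjusted p = 0.000678).

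**Figure D4:**
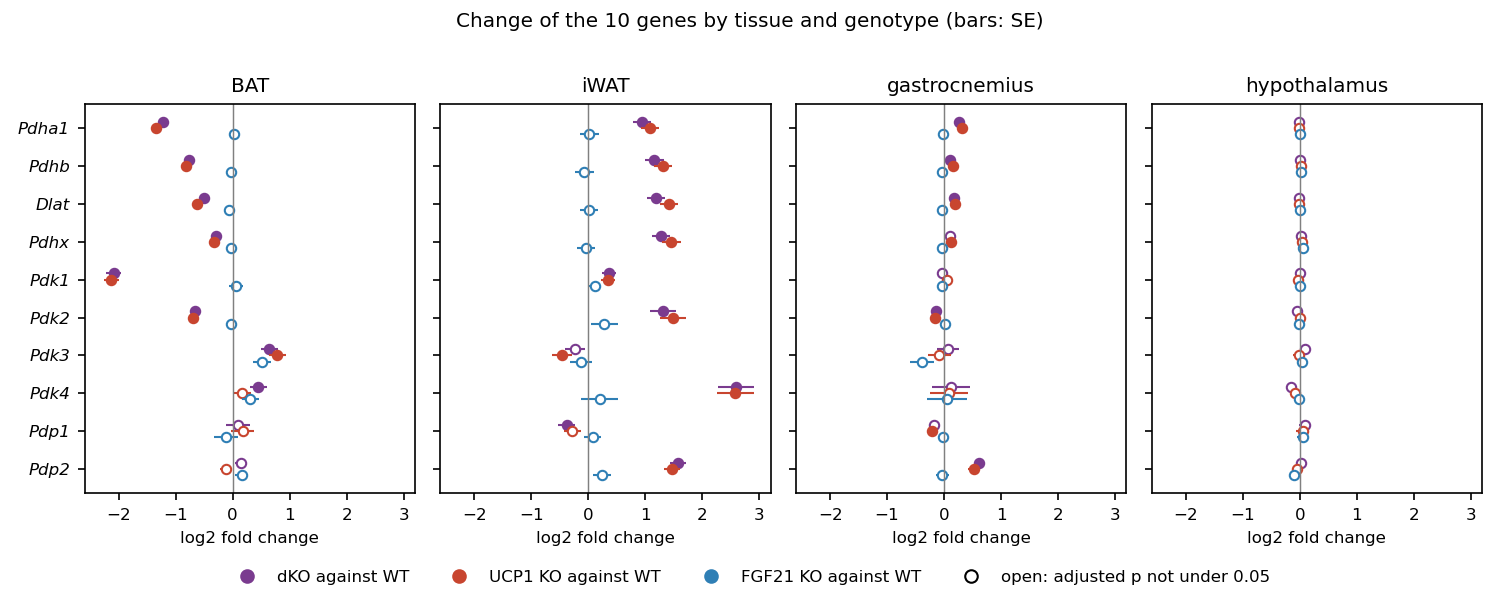
Log2 fold changes (horizontal axes) of the 10 members in dKO, UCP1 KO and FGF21 KO, each against WT, in the 4 tissues; points are estimates with their SE as bars, filled where the adjusted p was under 0.05, and the grey line marks no change. The dKO and UCP1 KO points of the subunit genes lie left of the line in BAT, right of it in iWAT, just right of it in gastrocnemius and on it in hypothalamus, and every FGF21 KO point is open.

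Loss of UCP1 also shifted the make-up of the kinase RNA, described here as shares of the 4 kinases per kilobase of exon and without a test. In BAT, Pdk4 made up 92.5% in dKO and 91.1% in UCP1 KO, against 85.7% in FGF21 KO and 83.7% in WT. Pdk1 made up 0.508% in dKO and 0.592% in UCP1 KO, against 2.44% in FGF21 KO and 2.67% in WT, and Pdk2 6.91% and 8.21%, against 11.7% and 13.6%. These are means over libraries, and the Pdk2 shares of UCP1 KO (7.16% to 10.8%) and FGF21 KO (9.55% to 17.9%) overlapped. For Pdk4 the lowest UCP1 KO share was 88.5% and the highest FGF21 KO share 88.4%. The summed level of the kinases in BAT was 1470 CPM per kb in dKO and 1224 in UCP1 KO, against 1422 in FGF21 KO and 1187 in WT. In iWAT the sum was 917 and 923 CPM per kb in dKO and UCP1 KO, against 218 and 189 in FGF21 KO and WT, and the Pdk4 share was 87.0% and 85.4%, against 67.6% and 69.0%. The lowest Pdk4 share in UCP1 KO iWAT was 78.9%, and the highest in FGF21 KO iWAT was 78.5%. Set against its target, Pdk4 per kilobase stood at 3.74 times Pdha1 in dKO BAT and 3.32 times in UCP1 KO BAT, against 1.41 times in FGF21 KO and 1.18 times in WT; in iWAT the ratios were 1.64 and 1.47, against 0.572 and 0.523. The ratio was thus higher without UCP1 in both depots. In BAT Pdha1 was lower in dKO and UCP1 KO, and Pdk4 was also called higher than in WT in dKO. In iWAT Pdk4 was higher by a greater factor than Pdha1.

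**Figure D5:**
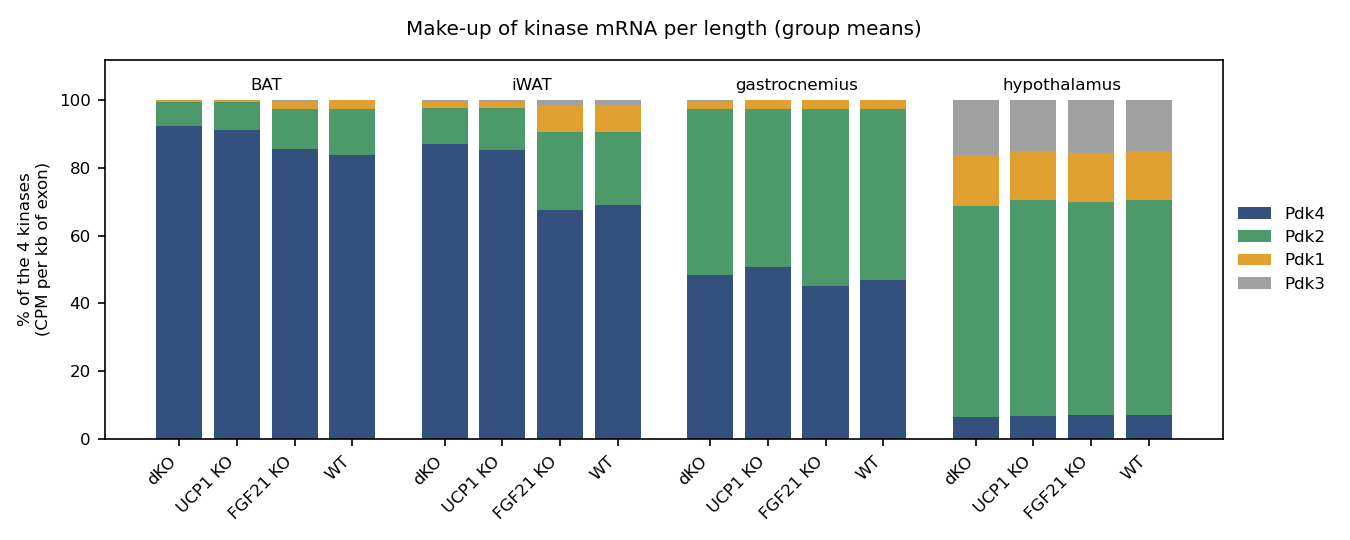
Share of Pdk1, Pdk2, Pdk3 and Pdk4 in the summed kinase RNA (vertical axis, percent of CPM per kb of exon, mean over libraries) in each genotype of each tissue. Pdk4 fills 83.7% to 92.5% of the bars in BAT and 67.6% to 87.0% in iWAT, Pdk2 and Pdk4 share the gastrocnemius bars, and Pdk2 fills 62.4% to 63.9% in hypothalamus.

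In gastrocnemius, a muscle of mixed fibre types, the changes were small, and the libraries were even enough to call them. In UCP1 KO 5 members were higher and 2 lower than in WT (12.3% of 15120 genes were called, 5.89% higher and 6.42% lower), and in dKO 4 were higher and 1 lower (10.3%, with 4.85% higher and 5.46% lower). Pdha1 ran over 938, 1042 and 1079 CPM in dKO and 1003, 1047 and 1088 CPM in UCP1 KO, against 811, 843 and 881 CPM in WT, with FGF21 KO libraries at 850, 865, 850, 814 and 821 CPM. The groups without UCP1 did not overlap WT. Its log2 fold change was 0.31 in UCP1 KO (SE 0.04, adjusted p = 1.06e-05), 1.24-fold, and 0.27 in dKO.

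Dlat gave 0.19 (SE 0.04, adjusted p = 0.00422) in UCP1 KO and 0.17 in dKO, and Pdhb 0.15 (SE 0.03, adjusted p = 0.00411) and 0.11 (adjusted p = 0.0404). Pdhx gave 0.13 (SE 0.04, adjusted p = 0.0399) in UCP1 KO and 0.10 in dKO, where it did not pass (adjusted p = 0.123). The Pdhx call in UCP1 KO was lost in 9 of 17 alternatives (adjusted p up to 0.131) and the Pdhb call in dKO in 11 of 17 (up to 0.102). Pdha1 per kilobase stood at 4.19 times Pdhb in dKO and 4.18 times in UCP1 KO, against 3.80 times in FGF21 KO and 3.74 times in WT.

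The strongest change of a regulator in gastrocnemius was in Pdp2, which is scarce there. It ran over 5.99, 6.57 and 9.65 CPM in dKO and 5.25, 6.63 and 7.37 CPM in UCP1 KO, against 4.79, 4.55, 4.28, 4.21 and 4.48 CPM in the FGF21 KO libraries and 3.74, 4.72 and 4.92 CPM in WT. Each dKO and UCP1 KO library lay above each WT library. The log2 fold change was 0.62 in dKO (SE 0.10, adjusted p = 0.000521), 1.53-fold, and 0.52 in UCP1 KO (SE 0.10, adjusted p = 0.00209), 1.43-fold. Pdp1, the main phosphatase gene of muscle by level, was lower in UCP1 KO (71.5 to 89.7 CPM) than in WT (83.4 to 98.1 CPM), by -0.21 on the log2 scale (SE 0.06, adjusted p = 0.0243); the dKO gave -0.17 (adjusted p = 0.078). Neither side of that threshold was firm: the UCP1 KO call was lost in 4 of 17 alternatives (adjusted p up to 0.0593), each without 1 library (WT replicate 4 or 5, or UCP1 KO replicate 3 or 5), and the dKO value was called without WT replicate 1 (adjusted p = 0.0349) or without dKO replicate 1 or 2 (0.0396 and 0.037). Pdk2 ran from 478 to 501 CPM in dKO and 455 to 502 in UCP1 KO, against 503 to 574 in WT, with log2 fold changes of -0.14 in dKO and -0.16 in UCP1 KO (SE 0.03, adjusted p = 0.00348).

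Pdk4 in gastrocnemius was too variable to rank. It ran from 325 to 1322 CPM in dKO and 409 to 803 in UCP1 KO, against 300 to 1110 in FGF21 KO and 442 to 673 in WT. In UCP1 KO the log2 fold change was 0.09 (SE 0.33, adjusted p = 0.887), and its approximate 95% interval ran from -0.55 to 0.74. Pdk1 (0.06) and Pdk3 (-0.08) did not pass either.

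In hypothalamus no member was called in dKO or UCP1 KO against WT by edgeR or by DESeq2, where 0.0555% of 18020 genes were called in each contrast by edgeR. At an unadjusted p under 0.05 there were 0 members in UCP1 KO, beside 5.43% of all genes, and 1 in dKO, Pdk4, beside 2.79%. Pdk4 held 11.7, 10.7, 10.5, 10.1 and 10.6 CPM in the dKO libraries, against 11.2, 11.9 and 13.1 CPM (lowest, median and highest) in WT, a log2 fold change of -0.16 (SE 0.07, unadjusted p = 0.0234 by edgeR). Pdha1 averaged 229 ± 7.83 CPM in dKO, 230 ± 7.88 in UCP1 KO, 233 ± 2.70 in FGF21 KO and 232 ± 8.10 in WT (SD, n = 5, 6, 5 and 6). Pdk3 made up 16.3% of the kinase RNA per kilobase in dKO, 15.0% in UCP1 KO, 15.5% in FGF21 KO and 15.1% in WT.

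Loss of FGF21 alone gave no call on a member in any tissue, by edgeR or DESeq2. The background was as thin, at 0.025% of genes in BAT, 0.00597% in iWAT, 0.0198% in gastrocnemius and 0.00555% in hypothalamus. At an unadjusted p under 0.05 there was 1 member of 10 in BAT, near the 9.44% of all genes there, and 0 in iWAT, gastrocnemius and hypothalamus, beside 2.72%, 4.2% and 2.48% of all genes. That member was Pdk3, with 3.31, 2.80, 2.81, 3.92 and 3.43 CPM in FGF21 KO BAT against 3.15, 1.98, 1.69, 2.54 and 2.02 CPM in WT BAT, and its log2 fold change was 0.52 (SE 0.16, adjusted p = 0.333). For Pdk1 in BAT the log2 fold change was 0.06 (interval -0.20 to 0.32) and for Pdha1 0.03 (interval -0.11 to 0.18). For Pdk4 in iWAT it was 0.20, with an interval of -0.43 to 0.82.

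Without UCP1, the further loss of FGF21 (dKO against UCP1 KO) gave no call on a member in any tissue by edgeR or DESeq2. The background was 1.73% of genes in BAT, 0.0358% in iWAT, 0% in gastrocnemius and 0.0111% in hypothalamus. At an unadjusted p under 0.05 there was 1 member of 10 in BAT, a share below the 16.6% of all genes there, and 0 in iWAT, gastrocnemius and hypothalamus, beside 2.9%, 5.8% and 4.06% of all genes. That member was Pdp2, at 67.8 ± 8.74 CPM in dKO and 56.1 ± 10.1 CPM in UCP1 KO (SD, n = 6 each), and the log2 difference was 0.27 (SE 0.10, adjusted p = 0.183). In iWAT the difference was 0.01 for Pdk4 (interval -0.59 to 0.61), -0.14 for Pdha1 (interval -0.44 to 0.16) and 0.09 for Pdp2 (interval -0.18 to 0.37), in mice whose UCP1 KO counterparts carried 302 to 1235 Fgf21 counts per iWAT library against 0 to 4 in dKO. The interaction of the 2 knockouts was called for no gene in any tissue by edgeR (0% of genes), and DESeq2 called 0 members. The unadjusted p was under 0.05 for 1 member in BAT, Pdk3 (-0.66, SE 0.21, adjusted p = 0.436), beside 7.29% of all genes, and for 0 in iWAT, gastrocnemius and hypothalamus, beside 2.56%, 3.56% and 2.74%.

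Loss of UCP1 in mice already without FGF21 (dKO against FGF21 KO) can be set beside these values; it shares the dKO libraries with 2 contrasts above. In BAT 57.2% of genes were called (29.3% higher and 28% lower) and 6 members lower: Pdk1 gave -2.15 (SE 0.13, adjusted p = 1.46e-11), Pdha1 -1.25, Pdhb -0.75, Pdk2 -0.64, Dlat -0.45 and Pdhx -0.25, with no call on Pdk4 (0.15, adjusted p = 0.413). In iWAT 37.3% were called (16.8% higher and 20.5% lower), with 7 members higher and 1, Pdp1 (-0.45, adjusted p = 0.0249), lower; Pdk4 gave 2.39 (SE 0.34, adjusted p = 2.13e-05), Pdp2 1.32, Pdhx 1.31, Pdhb 1.23, Dlat 1.17, Pdk2 1.03 and Pdha1 0.92, while Pdk1 did not pass (0.25, adjusted p = 0.12). The Pdp1 call was lost in 6 of 20 alternatives: its value was -0.17 (adjusted p = 0.134) without FGF21 KO replicate 3, -0.42 (adjusted p = 0.0528) without dKO replicate 6 and -0.10 (adjusted p = 0.392) without the 4 libraries high in muscle markers. The BAT call on Pdhx was lost without the 8 libraries high in muscle markers (-0.23, adjusted p = 0.0576). In gastrocnemius 7.76% were called (3.63% higher and 4.13% lower), with 4 members higher and 1 lower; Pdp2 gave 0.65 (SE 0.11, adjusted p = 0.000602) and Pdha1 0.28. In hypothalamus 0.0555% were called and no member, by edgeR or DESeq2, with 1 member, Pdk4, at an unadjusted p under 0.05, beside 3.24% of all genes.

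Dld and Pdpr complete the complex: Dld is the E3 dihydrolipoamide dehydrogenase that it shares with its sister complexes, and Pdpr is the regulatory subunit of the Pdp1 phosphatase. In UCP1 KO against WT, Dld had log2 fold changes of -0.43 in BAT (SE 0.08, adjusted p = 0.000137), 1.47 in iWAT (SE 0.15, adjusted p = 2.62e-07) and 0.13 in gastrocnemius (SE 0.04, adjusted p = 0.0213). Pdpr passed in BAT at -0.69 (SE 0.17, adjusted p = 0.00187), not in iWAT (0.48, adjusted p = 0.0993) or gastrocnemius (0.17, adjusted p = 0.301). It overlaps 9430091E24Rik, whose reads cannot be told apart here, and lies 27.8 Mb from Ucp1 on chromosome 8. The depot differences were 1.96 for Dld and 1.22 for Pdpr, both called in a contrast where 52.6% of all genes were called.

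Of 8 genes that handle pyruvate or lactate, 6 were lower and 0 higher in UCP1 KO BAT. For this and the lists that follow, the shares of all genes called in UCP1 KO were 30.2% higher and 29.9% lower in BAT, 22.3% and 24% in iWAT, and 5.89% and 6.42% in gastrocnemius, and a list near those shares shows nothing of its own. Ldha, a lactate dehydrogenase chain, averaged 649 ± 131 CPM in UCP1 KO (n = 6) against 2396 ± 148 CPM in WT (SD, n = 5), and its log2 fold change was -1.88 (SE 0.13, adjusted p = 7.26e-11). Mpc1, part of the mitochondrial pyruvate carrier, averaged 281 ± 54.3 CPM against 747 ± 70.9 CPM (-1.41, SE 0.11, adjusted p = 4.09e-10). In iWAT 4 of the 8 were higher, among them Ldhb (1.83) and the monocarboxylate carrier gene Slc16a1 (1.69), and 1 lower, the carrier gene Slc16a7 (-2.0). In gastrocnemius 1 was lower, the lactate exporter gene Slc16a3 (-0.42, SE 0.08, adjusted p = 0.00225), and 0 higher. The depot difference was positive for 5 of these 8 genes and negative for 1, beside 27.7% and 25% of all genes.

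Of 7 cofactor genes, for thiamine and lipoate, 2 were higher and 2 lower in UCP1 KO BAT, near the shares of all genes. The thiamine transporter genes Slc19a2 (1.5) and Slc19a3 (2.08, SE 0.74) were the higher ones. In iWAT 5 of 7 were higher and 0 lower, with Slc19a2 at 1.28 and the lipoyltransferase Lipt1 at 1.26. In gastrocnemius 1 was higher, Lipt1 (0.24). The sister complexes, which oxidise 2-oxoglutarate and branched-chain keto acids, had 1 gene higher and 4 lower of 7 in BAT (Bckdhb 0.77, Bckdha -0.88, Dlst -0.43), 7 higher in iWAT (Ogdh 1.79, Dlst 1.72) and 2 higher in gastrocnemius (Dlst 0.21, Ogdh 0.10).

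Of 12 genes of transcription regulators linked to the PDK genes, 2 were higher and 6 lower in UCP1 KO BAT. The higher ones were Ppargc1a, a coactivator of mitochondrial genes (0.87, SE 0.22, adjusted p = 0.00214), and Hif1a, the oxygen-regulated HIF-1 subunit (0.43, SE 0.09, adjusted p = 0.000307); the fatty acid receptor gene Ppard (-0.59) and the glucocorticoid receptor gene Nr3c1 (-0.37) were among the lower. In iWAT 7 were higher, among them Ppargc1a (1.86) and Hif1a (0.58), and 3 lower, among them Nr3c1 (-0.32) and Foxo1 (-0.38). In gastrocnemius 2 were higher, the estrogen-related receptor gene Esrrg (0.50) and Hif1a (0.18), and 0 lower. Hif1a RNA was thus called higher in UCP1 KO in BAT, iWAT and gastrocnemius.

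Of 7 genes of fat use often measured beside Pdk4, 3 were higher and 1 lower in UCP1 KO BAT, in all near the 60.1% of all genes called. Acot2, a mitochondrial acyl-CoA thioesterase, averaged 624 ± 130 CPM against 65.3 ± 5.35 CPM in WT (log2 fold change 3.26, SE 0.13, adjusted p = 5.72e-14), and Cpt1a, the liver-type carnitine palmitoyltransferase, 93.1 ± 9.59 CPM against 21.4 ± 1.83 CPM (2.12, SE 0.10, adjusted p = 2.08e-13). Ucp3, a relative of Ucp1 tied to fatty acid use, was lower (-0.69). In iWAT 4 of 7 were higher and 0 lower, with Acot2 at 3.95 and the carnitine carrier Slc25a20 at 2.20, and in gastrocnemius 1 was higher, Slc25a20 (0.18). In hypothalamus 0 genes of any of these lists were called in either direction by edgeR.

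The dKO was set against the same WT libraries, with 29.7% of all genes higher and 29.3% lower in BAT, 19% and 18% in iWAT, and 4.85% and 5.46% in gastrocnemius; several of the counts are near these shares. In dKO BAT 0 of the 8 pyruvate and lactate genes were higher and 7 lower, 3 cofactor genes higher and 1 lower, 2 sister complex genes higher and 4 lower, 2 regulators higher and 5 lower, and 5 fat-use genes higher and 1 lower. In iWAT the counts were 4 and 1, 5 and 0, 7 and 0, 6 and 2, and 4 and 0 (higher and lower, lists in the same order). In gastrocnemius they were 0 and 1, 0 and 0, 1 and 0, 0 and 1, and 1 and 0.

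Likeness between genes was measured as Pearson's r of group means of log2 CPM, centred within each tissue, over the 16 groups and 11613 genes; since few groups carry most of the variation and share libraries, r is given as a description without a test. The profile most like that of Pdk4 belonged to Rmdn3 (r = 0.997), followed by Cpt1b (0.995), Cycs, Slc25a20 and Idh3a (0.994 each). Among the genes most like Pdk1 were Ldha and Tcaim (0.996 each), Tlcd1 (0.994) and Anapc13 (0.993). Pdha1 was most like Gpr108, Cd59b, Glul and Coq10a (0.993 each) and Pfkp (0.990). Among the members, Pdk4 ran most like Pdhx (0.95, rank 473 of the 11613 genes) and Pdp2 (0.927, rank 697), and its r with Pdk1 was 0.078. Pdk1 and Pdha1 gave 0.852, with Pdha1 at rank 1015 for Pdk1 and Pdk1 at rank 996 for Pdha1. Many genes outside the members thus ran closer to Pdk4 and to Pdk1 than these members did.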

How the data were processed

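Stranded poly(A) RNA libraries with paired reads of 100 bp were made from 4 tissues, per the labels. Per the submitters' processing notes, STAR, HTSeq and the build mm10 were used, and the deposited values are whole-number raw counts for each gene; versions and the strand setting are not given in these sources. Of 32765 rows per file, 66 names occurring a second time were summed with the first (Dlst among them) and 2 rows naming no gene, at most 0.22% of a library's counts, were dropped. Counts of 210 replicate pairs differed by more than sampling noise in every pair (chi-squared per degree of freedom 3.63 to 710).

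Each tissue was fitted with edgeR 4.0.16 (R 4.3.3): TMM scaling, the filterByExpr filter, robust quasi-likelihood F tests, and Benjamini-Hochberg adjustment over all genes tested, called under 0.05. The filter left 16032 genes in BAT, 16751 in iWAT, 15120 in gastrocnemius and 18020 in hypothalamus. The depot difference came from 1 fit of 45 BAT and iWAT libraries. Intervals are the estimate ± 1.96 SE. The fits were tested on simulated data. Levels are CPM with TMM library sizes; levels per kb use merged exon lengths of a GRCm38 gene annotation.

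Alternatives were DESeq2 1.42.0, RLE size factors, no filter, the compared groups alone, each library left out, libraries high in markers of another tissue left out (mean log2 CPM over 7 for muscle in BAT, 2 for lymphocytes in iWAT and 3 for choroid plexus in hypothalamus) and those markers as a covariate. Leaving out 4 iWAT libraries with muscle markers over 7, and 2 covariates in iWAT, were added after seeing the data. Named were the 10 members, Dld and Pdpr, called list genes with at most the 2 smallest p per direction and list, Ucp1 and Fgf21, and the 5 genes most like Pdk4, Pdk1 and Pdha1 from genes averaging 5 CPM or more. Some genes that this rule names are not reported here. The members and lists were chosen with earlier results of these data known. Figures were drawn with matplotlib 3.10.9.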

Additional observations from a re-analysis of the deposited data

Results flagged for a closer look

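In 14 of 160 groups of 4 or more libraries, 1 library lay far from the rest by Dixon's criterion, which chance meets in about 1 in 20 groups; no cause was tested. In BAT these were Pdk4 in dKO replicate 5 at 5528 CPM (the others 4534 to 4689), Pdk4 in FGF21 KO replicate 1 at 2410 CPM (4366 to 5156) and Pdp1 in WT replicate 5 at 20 CPM (6.59 to 8.71).

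In iWAT, UCP1 KO replicate 3 was high in Pdhb, at 1975 CPM (1276 to 1536), and in Pdk1, at 174 CPM (125 to 138). UCP1 KO replicate 2 was low in Pdk2, at 260 CPM (343 to 386). That library was among the 4 iWAT libraries high in muscle markers and the 12 high in lymphocyte markers. FGF21 KO replicate 3, also among the 4 high in muscle markers, was high in Pdk2, at 276 CPM (97.8 to 147), and in Pdp1, at 22.1 CPM (9.63 to 12.2). Pdk2 and Pdp1 are also expressed in muscle, and the part of muscle or lymphocyte RNA in any of these values was not tested.

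In gastrocnemius, dKO replicate 5 was high both in Pdk4, at 1322 CPM (325 to 608), and in Pdp2, at 9.65 CPM (5.99 to 6.69). In hypothalamus, Dlat lay at 101 CPM in FGF21 KO replicate 2 (97.8 to 98.6), Pdp1 at 270 CPM in dKO replicate 2 (191 to 198), Pdp2 at 10.9 CPM in WT replicate 2 (9.24 to 9.85) and Pdp2 at 7.95 CPM in FGF21 KO replicate 2 (9.18 to 9.57).

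The effect of UCP1 loss differed between iWAT and BAT for 9 members, beside 52.6% of genes, when the difference itself was tested with edgeR. On the log2 scale it was 2.48 for Pdha1, 2.20 for Pdhb, 2.12 for Dlat, 1.85 for Pdhx, 2.54 for Pdk1, 2.25 for Pdk2, -1.19 for Pdk3, 2.47 for Pdk4 and 1.66 for Pdp2.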

How the results depend on the processing

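Of 73 called values of members over all tissues and comparisons, 64 kept their call under every alternative run, 9 lost it under at least 1 and 0 turned round, while 8 values gained a call under at least 1. The lost calls were Pdk1, Pdk3 (lost in 11 of 21) and Pdp1 (dKO, lost in 16 of 21) in iWAT, Pdhx and Pdp1 in UCP1 KO and Pdhb in dKO in gastrocnemius, and Pdhx in BAT (-0.23, adjusted p = 0.0576 without libraries high in muscle markers) and Pdp1 in iWAT in dKO against FGF21 KO by edgeR. Without the 4 iWAT libraries high in muscle markers, Pdk1 gave 0.33 in dKO (adjusted p = 0.0606) and 0.32 in UCP1 KO (adjusted p = 0.0597) against WT. Without FGF21 KO replicate 3, Pdp1 in iWAT of dKO against FGF21 KO was -0.17 (adjusted p = 0.134). Pdp1 in iWAT UCP1 KO gained a call with the compared groups alone (-0.28, adjusted p = 0.0119). The Pdp1 call in gastrocnemius UCP1 KO had adjusted p up to 0.0593. The count of members called in both directions together moved by no more than 1.5 times in any comparison, but counts of 0 to 2 in 1 direction did. Without libraries high in markers of another tissue, 2 members were called higher in BAT UCP1 KO against WT (1 in the main analysis) and 2 had a negative depot difference (1), and 1 was higher in BAT dKO against FGF21 KO (0). With single libraries left out, these counts ran from 1 to 2 in BAT UCP1 KO and from 1 to 2 for the depot difference. The 1 member called lower in iWAT UCP1 KO against WT became 0 under DESeq2, RLE size factors or without the 12 libraries high in lymphocyte markers, 0 to 1 with single libraries left out, and 2 with the compared groups alone, without libraries high in muscle markers or with both marker lists as covariates. The 1 lower in iWAT dKO against WT became 0 under DESeq2, RLE, no filter, without the 12 libraries and with each single library left out, and the 1 lower in iWAT dKO against FGF21 KO became 0 with the compared groups alone, without libraries high in either marker list or with both as covariates, and 0 to 1 with single libraries left out. In gastrocnemius the members lower than WT numbered 1 to 2 in UCP1 KO (2) and 1 to 2 in dKO (1) with single libraries left out. The tissue order in WT was kept for 6 of 10 members when all 90 libraries were scaled together. No paired analysis was possible because the labels number no replicates and tie no libraries to a mouse. Depth limits Pdk3 in gastrocnemius and BAT most, at a few CPM or less.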
